A study of Mus musculus with 8 samples.

Results

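The RNAs pulled down with DDX5 in the small intestine epithelium are described here gene by gene. Enhanced cross-linking and immunoprecipitation sequencing (eCLIPseq) was done on intestinal epithelial cells (IECs), and all 1278 peaks of the merged small intestine list were taken, out of 26879 peaks in the 3 lists of the series that carry sample labels. The other lists are from colonic IECs and held 16455 peaks for the antibody sample named mAb and 9146 for the one named rAb. The small intestine samples were 2 CLIP libraries, made with an anti-DDX5 antibody from Abcam, and 2 size-matched input libraries that had no immunoprecipitation, among 8 samples in all. Both groups came from wild-type C57BL/6 female mice, given in the labels as 8 weeks old, whose small intestine epithelium was stripped off with EDTA. According to the methods, the replicates were 2 mice, and no knockout, drug or infection was applied to either group.

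DDX5 is a DEAD-box RNA helicase, a protein that binds RNA and uses ATP to open short duplexes. It takes part in transcription, splicing, microRNA maturation and ribosome production, and contacts RNA largely through the backbone rather than through a fixed base sequence. In eCLIPseq, UV light links proteins to the RNA they touch, RNase trims that RNA, and the fragments held by the antibody are sequenced beside an input cut from the same size range of the gel. The absorptive enterocyte, the most abundant cell of the small intestine epithelium, digests sugars and peptides at its brush border, takes up lipid and exports it in lipoproteins.

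Each peak of the list carries a log2 fold, the depth-normalized CLIP reads over the depth-normalized input reads, and a −log10 p for the same reads. A peak was listed only where both values were above 3, so that no listed peak has less than an 8-fold excess of CLIP over input. The list merges both mice and gives 1 pair of values per peak. The read depth behind them is unknown, the spread between the mice cannot be given, and every comparison below is a description of 1 list with no test between conditions. Log2 folds ran from 3.0 to 9.15 with a median of 4.29 and quartiles of 3.58 and 5.10. The −log10 p ran from 3.04 to a cap of 400 with a median of 13.6. Peaks were 1 to 188 bases wide, with a median of 57 bases. The peaks nearest to the cutoff lay on Anpep, Nus1 and Guca2b for the log2 fold, each at 3.0, and on Usp34 at 3.04, Hsp90b1 at 3.05 and Mgam at 3.11 for the −log10 p. Values just under the cutoff are not in the list.

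Several kinds of bound sequence recur in the results below, and examples are printed first. Coordinates are on GRCm38 (mm10), counted from 1, and each sequence is the whole peak read 5′ to 3′ on the transcript strand. The first kind lay in coding sequence, where the 6 letters GAAGAA, in capitals, were found in more sites than beside them. The examples are from Apob at chr12:7989355-7989421 in exon 12 of 29, with a log2 fold of 3.61, from Apoa4 at chr9:46242884-46242925, with 3.13, from Krt20 at chr11:99428984-99429079, with 3.86, and from Ncl at chr1:86356382-86356438, with 4.30. The peaks of Apob, Apoa4 and Ncl lay wholly in coding bases, and that of Krt20 in 95 of its 96 bases.
Apob: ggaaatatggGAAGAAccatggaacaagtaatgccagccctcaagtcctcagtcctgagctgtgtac
Apoa4: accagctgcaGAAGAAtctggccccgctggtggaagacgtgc
Krt20: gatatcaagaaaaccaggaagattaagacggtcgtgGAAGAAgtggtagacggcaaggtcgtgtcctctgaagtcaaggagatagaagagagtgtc
Ncl: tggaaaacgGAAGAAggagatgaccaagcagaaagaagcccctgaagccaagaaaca

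The second kind lay in introns within 500 bases of an exon, called proximal introns, where sites were rich in G and C. GGGCGG and GGGAGG are in capitals. The examples are from Actb at chr5:142906020-142906067 on the minus strand, with a log2 fold of 3.68, from Eif4a1 at chr11:69671264-69671357 on the minus strand, with 4.97, and from Srsf5 at chr12:80946180-80946247 on the plus strand, with 3.81.
Actb: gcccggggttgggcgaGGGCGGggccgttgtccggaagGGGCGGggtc
Eif4a1: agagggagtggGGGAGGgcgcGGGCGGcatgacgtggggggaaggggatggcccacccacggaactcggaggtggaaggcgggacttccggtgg
Srsf5: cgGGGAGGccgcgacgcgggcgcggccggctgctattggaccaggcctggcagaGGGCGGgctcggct

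The third kind was an intronic purine repeat, shown because such repeats joined sites of many genes, again with GAAGAA in capitals. The Slc5a1 peak lay in intron 2 at chr5:33118637-33118702 on the plus strand, with a log2 fold of 7.36, and the Asah2 peak at chr19:32041340-32041401 on the minus strand, with 6.86.
Slc5a1: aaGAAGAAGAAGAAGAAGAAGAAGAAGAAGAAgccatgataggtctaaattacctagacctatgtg
Asah2: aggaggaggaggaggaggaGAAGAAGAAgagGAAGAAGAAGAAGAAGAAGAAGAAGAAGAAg

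The fourth kind was the mature strand of a microRNA, whose seed (bases 2 to 8, which pair with target RNAs) is in capitals. The letters are those of RefSeq for GRCm38.p6, and 4 of the 6 genes that the annotation calls microRNAs matched an entry.
mmu-miR-194-5p: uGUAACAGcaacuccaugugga
mmu-miR-215-5p: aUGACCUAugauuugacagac
mmu-miR-142a-3p: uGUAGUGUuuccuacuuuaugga

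The 1278 peaks lay on 462 genes, counting the first gene named for each peak, and 4 peaks had no gene. Of these genes, 430 were protein-coding, which is 1.96% of the 21951 protein-coding genes of the annotation (GENCODE M21). Another 18 were long non-coding genes (0.135% of 13374) and 13 were small non-coding genes (0.213% of 6107). The remaining gene was Gm8979, a pseudogene with 1 peak at 4.29. Intervals of 10 bases or less apart were joined for the searches of sequence, which left 1026 sites. In 55 peaks, both values were those of another peak of the same gene, so neighbouring peaks can be parts of 1 measurement. The region named in the deposited list matched the annotation in 88.0% of peaks, and the gene in 99.0%.

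The genes with a peak matched the labelled tissue in their enterocyte markers. Of 8 enterocyte markers, 7 had a peak, 44 peaks in all, and the one without was Alpi, the intestinal alkaline phosphatase. Of 6 general epithelial markers, Epcam, Cdh1, Krt8 and Krt20 had 31 peaks. Goblet cells were marked by 1 of 6 genes, Fcgbp, which codes for a protein of mucus, with 1 peak at a log2 fold of 3.51. No peak was listed on 4 Paneth, 4 enteroendocrine, 3 tuft or 4 crypt stem cell markers, on 6 leukocyte, 7 stromal or 5 neural markers, or on a mitochondrial transcript. A gene without a peak was not shown to be unbound. Over all protein-coding genes 1.96% had a peak, so sets of this size can hold none at that share. Fewer cells of a type and less RNA per cell cannot be told apart in these bulk samples, nor can either be told apart from weaker binding. Ddx5 itself had no peak in the list.

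Most genes had few peaks. A lone peak was listed on 195 genes (42.2% of 462), 2 peaks on 130, 3 on 45 and 4 on 33. The 59 genes with 5 or more peaks held 552 peaks, or 43.2% of the list, and 24 genes had 5 or more at a log2 fold of at least 4. The 10 genes with most peaks held 223 peaks, a share of 17.4% (exact 95% binomial interval 15.4 to 19.6). Such intervals cover counting error only, since peaks of a gene are not independent and the reads behind them passed through PCR. The median length of the coding sequence was 1495.5 bases for 180 protein-coding genes with 1 peak, 1615.5 for 194 genes with 2 to 4 and 1321.5 for 56 genes with 5 or more. Across all protein-coding genes it was 1176 bases. Among genes with a peak, the whole gene was shorter where peaks were more, with medians of 49227.5, 33779 and 26172 bases in these groups. Each was above the median of 17403 bases over all protein-coding genes.

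In all, 12 genes carried 10 or more peaks, and the nuclear long non-coding RNAs Malat1 and Neat1 led them with 54 and 49. Muc13, a cell-surface mucin of the epithelium (ENSMUSG00000022824.12, chr16:33794037-33819934), had 20 peaks with log2 folds of 3.08 to 6.33, of which 15 were coding, 4 in the 3′ UTR and 1 in a proximal intron. The 2900026A02Rik gene also had 20 peaks, at 4.53 to 6.30, and all of them lay inside intron 6 of its 13-exon transcript. Apob, the structural protein of chylomicrons (ENSMUSG00000020609.14, chr12:7977648-8016835), had 18 peaks at 3.11 to 5.72, all coding. Ctnnb1, the beta-catenin of junctions and Wnt signalling, had 14 peaks at 3.99 to 6.30, with 9 in intron 1 and 4 in its last exon, exon 15. Mgam, the brush border maltase-glucoamylase, had 13 peaks at 3.21 to 6.60. Slc5a1, the sodium-glucose cotransporter SGLT1, and Xist, the RNA of the inactive X chromosome, had 12 each. Atp1b1, a subunit of the sodium pump, had 11 peaks, and Cmip and Krt20, a keratin of differentiated enterocytes, had 10 each. Peaks of these genes were spread over coding exons in Apob and Muc13, packed into 1 intron in 2900026A02Rik and Cmip, and mixed in Ctnnb1 and Slc5a1.

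**Figure D1:**
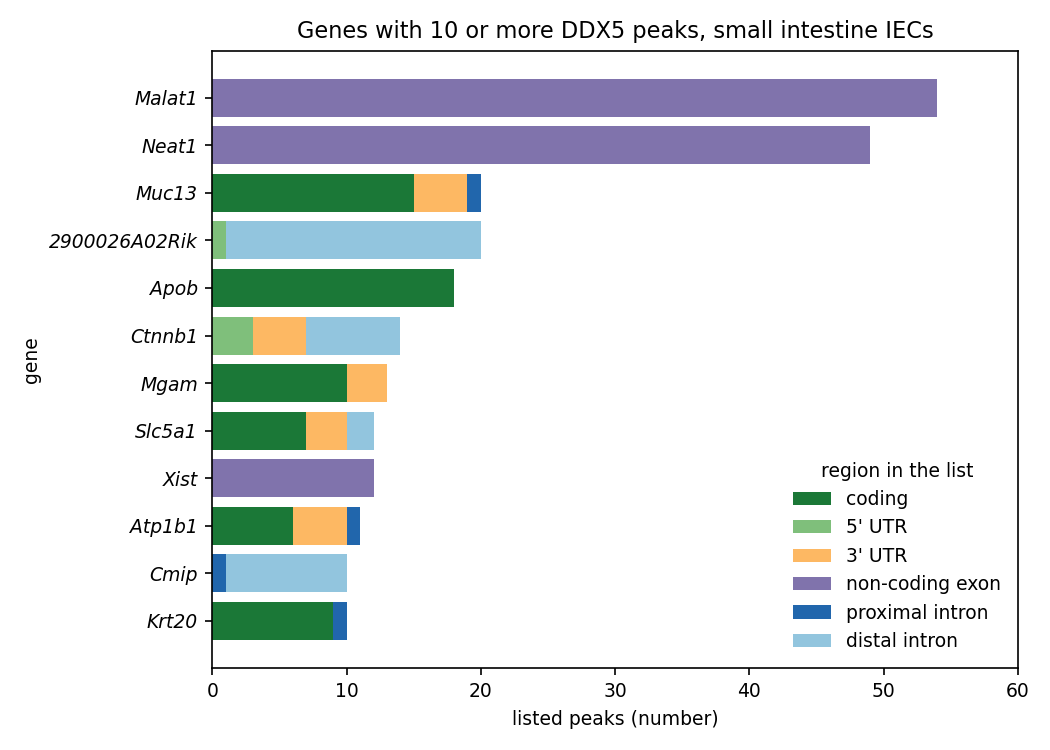
Number of listed peaks (x axis) on each of the 12 genes with 10 or more peaks (y axis), each bar split by the region of the peak. Malat1 and Neat1 have 54 and 49 peaks in non-coding exons, Apob has 18 coding peaks, and the 20 peaks of 2900026A02Rik are nearly all in a distal intron.

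The region bound differed with the class of gene. Over the 1107 peaks of protein-coding genes, 36.4% (33.6 to 39.3) were coding, on 171 genes, and 46.2% (43.2 to 49.1) were intronic, on 251 genes. Proximal introns held 23.5% and distal introns, more than 500 bases from an exon, 22.7%. The 5′ UTR held 7.86%, on 67 genes, and the 3′ UTR 9.39%, on 59 genes. In the same 430 genes, coding sequence made up 2.91% of the gene's length, proximal intron 13.2% and distal intron 78.5%. Coding sequence thus took a larger share of peaks than of length, and distal intron a smaller one. With a log2 fold of at least 4, the coding share fell to 20.4% (17.4 to 23.7). Among exonic peaks alone, coding sequence held 67.8% (63.9 to 71.6) of 594 peaks in coding sequence and UTRs, against 47.3% of the length of these regions. In long non-coding genes, 131 of 150 peaks, or 87.3% (80.9 to 92.2), were in an exon, and exons made up 8.93% of their length. Without Malat1 and Neat1 the share was 59.6% (44.3 to 73.6). All 16 peaks of small non-coding genes were in an exon.

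A gene usually kept to 1 kind of region. Of the 430 protein-coding genes, 178 had only intron peaks, 95 only coding peaks, 30 only 5′ UTR peaks and 23 only 3′ UTR peaks. The 73 genes with both exon and intron peaks, and the 31 with several exon regions, made up the rest. Genes with 1 peak have 1 region by construction. Among the 250 genes with at least 2 peaks, 80 had only intron peaks, 51 only coding peaks and 73 both exon and intron peaks. Among the 56 genes with 5 or more, 28 had both exon and intron peaks, 11 only intron peaks and 8 only coding peaks.

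Intron peaks stood higher over input than coding peaks. The median log2 fold was 3.73 for the 403 coding peaks of the list, 3.82 for 87 in the 5′ UTR, 4.56 for 104 in the 3′ UTR, 4.54 for 150 in non-coding exons, 4.61 for 269 in proximal introns and 5.00 for 261 in distal introns. Coding peaks therefore lay closest to the cutoff, and their median is the one most set by it. The order was the same inside genes. In the 46 protein-coding genes with both kinds of peak, the intron median was higher in 39 and the coding median in 6, and the median difference, intron minus coding, was 0.87 on the log2 scale with quartiles of 0.30 and 1.53. The largest differences were those of Slc5a1 (3.47), Dstn, which codes for an actin-severing protein (3.16), App, the amyloid precursor (2.95), and Myh14, a non-muscle myosin (2.65). Slc5a1 and App are among the genes described below with a site that shares sequence with other genes, so reads there may not all be theirs. The difference was negative in Muc13 (-0.62), in Fos (-0.52), a transcription factor of the early stress response, and in Hsp90aa1 (-0.41), a cytosolic chaperone.

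**Figure D2:**
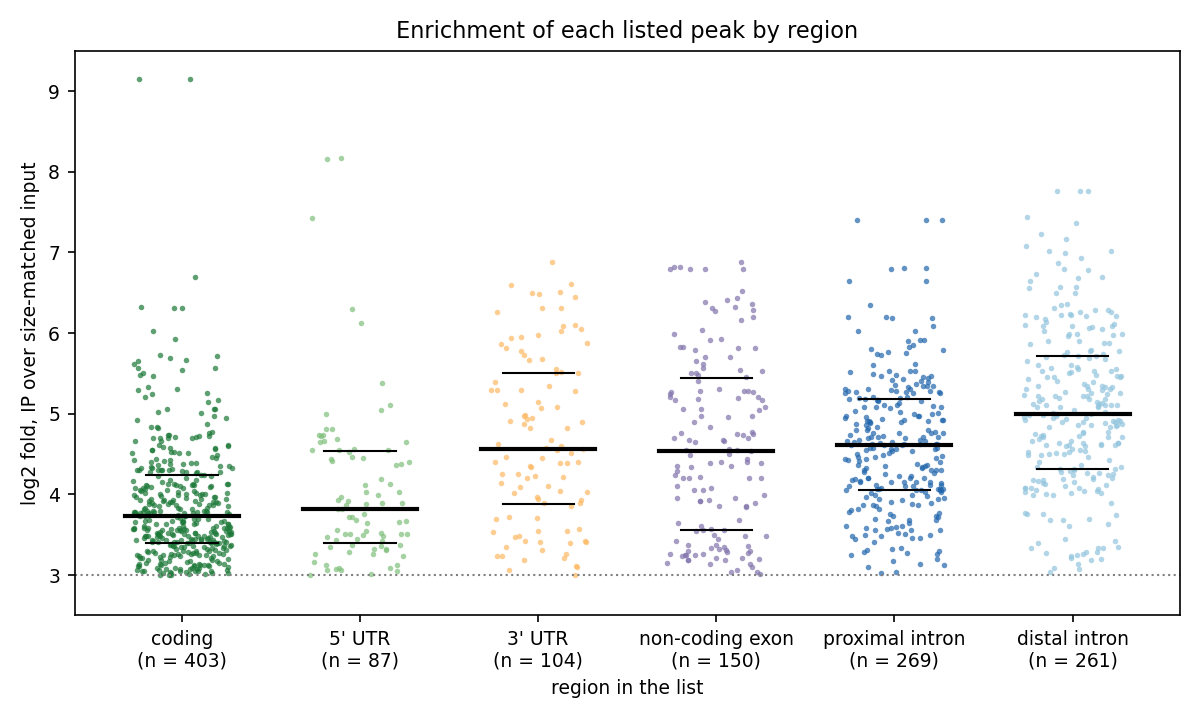
Log2 fold of CLIP over input (y axis) for each listed peak, grouped by region (x axis), with the median as a thick line, the quartiles as thin lines and the cutoff of 3 dotted. Medians run from 3.73 for coding peaks to 5.00 for distal intron peaks, and the ranges of all regions overlap.

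Intron peaks gathered near the start of the gene. Of 502 intron peaks placed on a transcript of a protein-coding gene, 358 lay in intron 1, a share of 71.3% (67.1 to 75.2), while intron 1 made up 37.2% of the intron length. Within 1000 bases of the transcript start lay 253 peaks (50.4%). The 5′ splice site was the nearer end of the intron for 413 peaks (82.3%). Over all 502 peaks, the median distance was 535 bases to the 5′ splice site and 11714.5 bases to the 3′ splice site. Within 500 bases of a 5′ splice site lay 237 peaks, and within 500 bases of a 3′ splice site 53. Coding peaks were placed along the spliced transcript, UTRs included. Of 336 placed coding peaks, 142 were in the first of 3 equal parts of the spliced transcript, 131 in the middle part and 63 in the last part. The coding bases in each part were not counted, so these counts do not show a bias toward either end. Examples of intron 1 were Cmip with 10 peaks (3.76 to 5.87), Eif4a1, the helicase of the cap-binding complex, with 7 (4.61 to 5.77), Gnb1, a G protein subunit, with 6 (4.76 to 6.02), Atf3, a stress-induced transcription factor, with 6 (4.50 to 5.96), and Actb, the beta-actin gene, with 6 (3.28 to 6.19). The Actb peak at 3.76 is named as 5′ UTR in the list although it lies in intron 1 of the transcript used here.

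**Figure D3:**
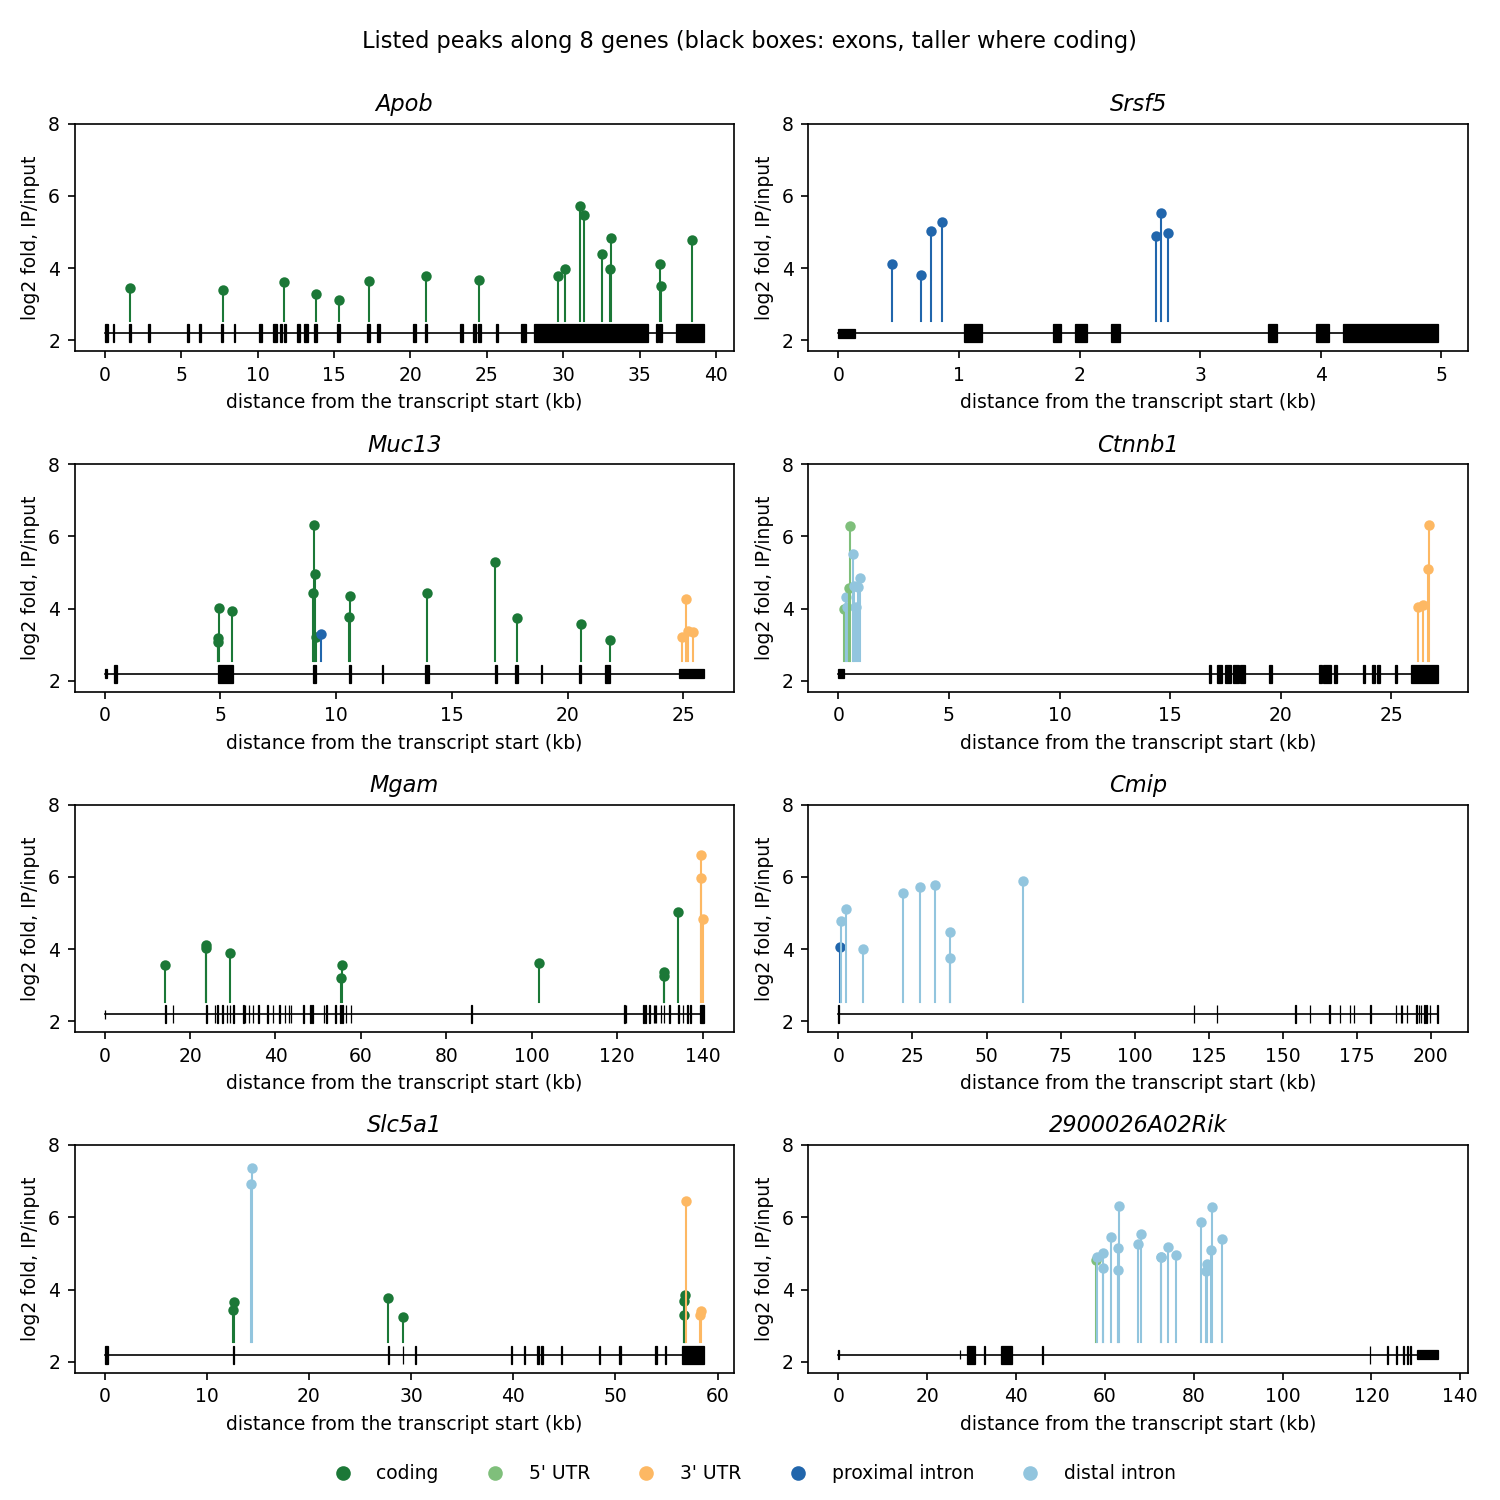
Log2 fold of each peak (y axis) against its distance from the transcript start in kb (x axis) for 8 genes, with exons drawn as black boxes. Apob peaks sit on exons throughout the gene, as do all but 1 of those of Mgam, whereas those of Cmip and 2900026A02Rik stand within 1 intron.

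Gene groups were read from 30 lists by function, family or cell type, which held 1401 genes, 148 of them with a peak, carrying 509 peaks. Since transcripts that are scarce can give no peak, a second background was used beside the 1.96% above. Of 5663 protein-coding genes with a peak called in either colon list, enriched or not, 376 (6.64%) had a small intestine peak. Shares on this background are given for some lists only. Among members called in the colon, they were 36.4% of 22 myosins, 33.3% of 6 keratins and 30.2% of 43 splicing genes. For lipid genes, solute carriers and DEAD- and DEAH-box helicases they were 22.2% of 9, 5.81% of 86 and 3.45% of 29. Each count below is a description, and peaks of different lists can be of the same gene.

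Lipid uptake and lipoprotein genes had a peak in 10 of 26 members (38.5%). Of their 56 peaks, 49 were coding, and the median log2 fold was 3.70. At a log2 fold of at least 4, 5 of the 10 genes kept a peak. Apob had 7 of its 18 peaks in exon 26, at 3.78 to 5.72, and 1 or 2 in each of 10 other exons. Apoa4, an apolipoprotein of chylomicrons, had 8 coding peaks with log2 folds of 3.05, 3.74, 3.30, 3.36, 3.13, 3.42, 3.43 and 3.74. Apoa1, the main protein of high-density lipoprotein, had 5 coding peaks at 3.04 to 3.76. The peaks of Apoa4 and Apoa1 were thus all close to the cutoff, whereas Apob also had higher ones, among them 2 above 5 in exon 26 and 1 at 4.78 in exon 29. Fabp2, the intestinal fatty acid-binding protein, had 2 peaks in each of its 4 exons at 3.21 to 4.67, and one of them, in exon 3, stood at the cap of −log10 p. Fabp1, the liver-type fatty acid-binding protein (ENSMUSG00000054422.7, chr6:71199827-71205023), had 3 coding peaks at 3.36, 3.66 and 3.43, all in exon 2, and the last, 8 bases wide, adjoined the one before it. Dgat1, which makes the final step of triglyceride synthesis, differed from these in having 4 of its 7 peaks in introns, and the highest stood at 4.94. Cpt1a, which admits fatty acids to mitochondria, had 1 peak, in a distal intron at 6.57, and Npc1l1, the cholesterol transporter, had 1 coding peak at 3.92. Only 9 of the 26 genes had a peak called in the colon.

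Digestive hydrolases of the brush border had a peak in 7 of 18 members (38.9%), and none of their 34 peaks was in an intron. At a log2 fold of at least 4, 4 of the 7 genes kept one. Sis, the sucrase-isomaltase, had 9 coding peaks in 9 exons at 3.13 to 4.30. Mgam had 10 coding peaks at 3.21 to 5.02 and 3 in the 3′ UTR at 6.60, 5.97 and 4.82, of which the first 2 stood above all of its coding peaks. Anpep, the aminopeptidase N, had 4 coding peaks at 3.0 to 3.49. Number of peaks and density of peaks ordered genes differently. Fabp2 had 17.5 peaks per kb of coding sequence, with 80.2% of its coding bases under a peak, and Apoa4 had 6.73 per kb, with 40.1% covered. Sis had 1.65 per kb and 16.6% covered, and Apob 1.33 per kb and 9.51% covered, although Apob has more peaks. Muc13 had 8.71 per kb with 32.6% covered, and Krt20 6.94 per kb with 42.4% covered.

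Mucus and defence genes were few and mostly coding. Of 15 mucus genes, Muc13, Muc3 and Fcgbp had a peak (20.0%), and 20 of 25 peaks were coding. At a log2 fold of at least 4, 1 of the 3 kept one. Muc3, a membrane mucin, had 4 coding peaks at 3.20 to 3.67. The highest Muc13 peak, at 6.33, was a coding one. Of 20 antimicrobial and Paneth genes, 2 had a peak. Reg3b, a lectin that kills bacteria, had 9 peaks at 3.33 to 4.93 which joined into 3 sites, and its coding sequence had 15.2 peaks per kb. Pigr, the receptor that carries IgA to the lumen, had 4 peaks in the 3′ UTR, all at the cap, with log2 folds of 3.69, 5.40, 6.61 and 6.26, whereas its 4 coding peaks stood at 3.26 to 4.18 and its 5′ UTR peak at 3.67. One of its sites shares sequence with sites of other genes, as described below.

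Solute carriers had a peak in 8 of 356 members (2.25%), close to the share over all protein-coding genes, and 4 kept one at a log2 fold of at least 4. Slc5a1 held 12 of their 24 peaks. Its 7 coding peaks stood at 3.25 to 3.87, its 3 peaks in the 3′ UTR at 6.45, 3.31 and 3.42, and its 2 peaks in intron 2 at 6.93 and 7.36. The intron peaks lay above all others of the gene, and one of them is the purine repeat printed above. Slc6a19, the brush border carrier of neutral amino acids, had 1 peak in the 3′ UTR at 3.89, and Slc6a8, the creatine carrier, 2 coding peaks at 3.32 and 3.52. Slc29a3, a nucleoside carrier, had 2 peaks of 5 and 14 bases with the same log2 fold of 6.09 and the capped −log10 p. Slc9a3r1, which shares the symbol family but codes for a scaffold protein, had 2 peaks at 4.68 and 4.92.

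Structural genes of the epithelium had more mixed regions. Brush border and actin genes had a peak in 10 of 26 members (38.5%), and 15 of 34 peaks were coding and 13 intronic. Vil1, the actin bundler villin, had 6 coding peaks at 3.05 to 3.50 and 1 proximal intron peak at 4.10. Pls1, another actin bundler, had none in coding sequence, with 4 peaks in the 3′ UTR at 3.41 to 5.68 and 1 in the 5′ UTR at 5.05. Cell junction genes had a peak in 13 of 36 members (36.1%), with 22 of 47 peaks intronic and 8 coding. Epcam, the epithelial adhesion molecule, had 8 peaks in 3 regions at 3.03 to 6.49, and Cdh1, the E-cadherin, 4 peaks of which a distal intron peak reached 7.08. Myosins had a peak in 8 of 55 members (14.5%), among them Myo1a, the brush border myosin, with 4 coding peaks at 3.45 to 4.32 and 1 intron peak at 4.57. Keratins had a peak in 2 of 53 members (3.77%), Krt20 with 9 coding peaks at 3.02 to 4.72 and Krt8 with 4 coding and 5 intron peaks at 3.14 to 4.63.

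Intron peaks were the larger part in the hnRNP and translation factor lists and the smaller part in the splicing list. Of 20 hnRNP genes, which code for packaging proteins of nuclear RNA, 8 had a peak, and 14 of 23 peaks were intronic. All 20 also had a called colon peak. Hnrnpa3 had 4 proximal intron peaks at 4.07 to 5.85 and 1 coding peak at 4.72, and Hnrnpk a distal intron peak at 6.99. Hnrnpa2b1 was the other way round, with 6 coding peaks at 3.38 to 4.13 and 1 intron peak at 4.44. Of 45 SR proteins and splicing factors, 13 had a peak (28.9%), with 16 coding and 12 intronic of 31. Srsf5, an SR protein, had 7 proximal intron peaks, 4 in intron 1 and 3 in intron 5, at 3.81 to 5.53. Rbm25, a splicing regulator, had 4 coding peaks at 3.51 to 5.65. Of 68 translation factors, 8 had a peak (11.8%), with 13 of 20 peaks intronic. Eef1a1, the elongation factor, had 2 proximal intron peaks at 4.07 and 5.26 and a coding peak at 3.0.

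**Figure D4:**
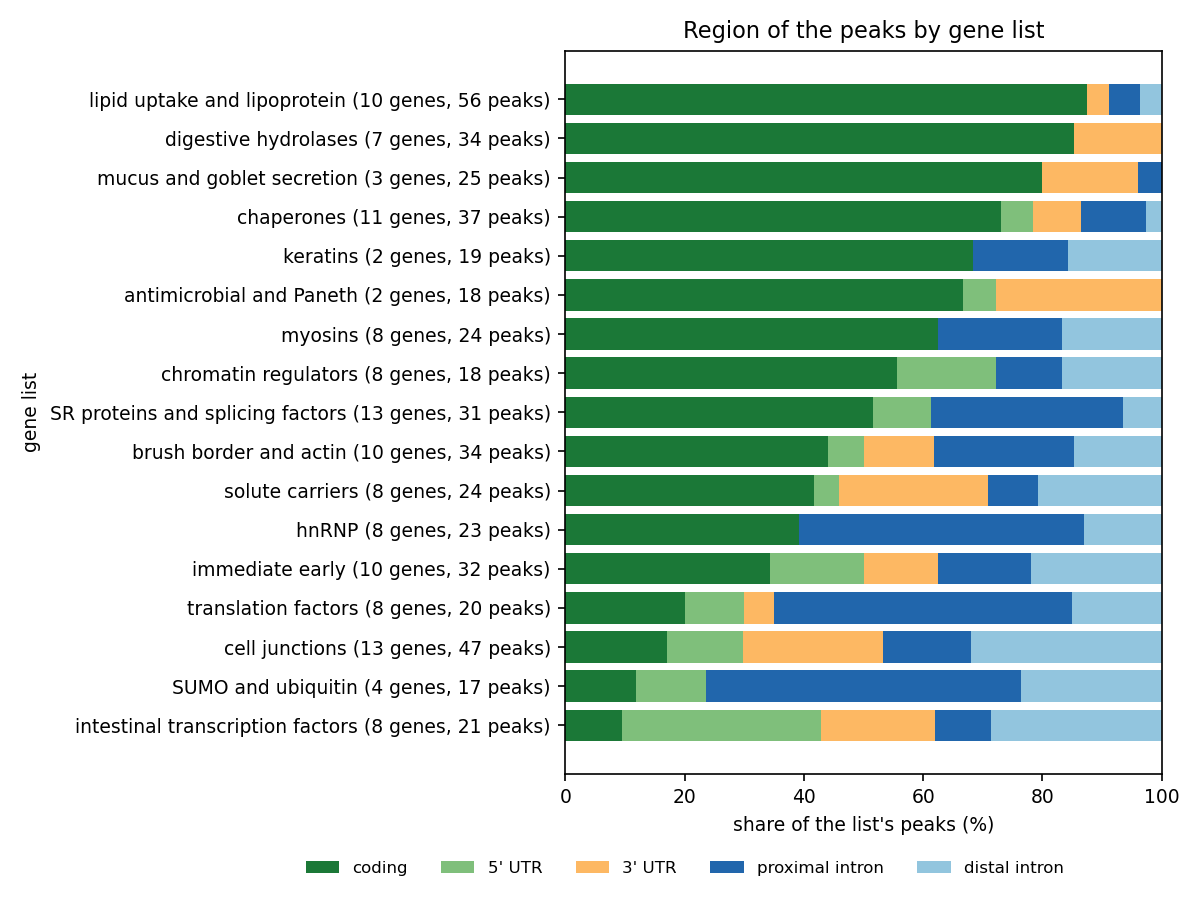
Share of peaks by region in percent (x axis) for the 17 gene lists with at least 15 peaks (y axis). Lipid genes have 87.5% coding peaks and digestive hydrolases 85.3%, whereas translation factors have 65.0% intron peaks and the ubiquitin list 76.5%.

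Several housekeeping families had a peak in a small share of members, between 1.49% and 4.76%, against 1.96% over all protein-coding genes. Ribosomal protein genes had 5 peaks on 4 of 84 members (4.76%), and the same 4 were 5.48% of the 73 that had a called colon peak. The count was 2 with genes assigned from the annotation, and 0 at a log2 fold of at least 4. Rpl3 held 2 of the 5 peaks, in introns at 3.59 and 3.85. Respiratory chain genes had a peak in 3 of 96 members (3.12%), with Atp5a1, a subunit of ATP synthase, at 3.26 to 4.82 over 4 peaks. Among DEAD- and DEAH-box helicases, the family of DDX5, 1 of 53 had a peak (1.89%). This was Ddx3x, with 2 proximal intron peaks at 4.62 and 5.44. Of 67 replication-dependent histone genes, Hist1h1b, a linker histone, had 1 peak at 3.94. The ubiquitin and SUMO genes stood above these, with a peak in 4 of 50 members (8.00%). The same 4 were 12.9% of the 31 with a called colon peak, against 6.64% over all such genes. Of their 17 peaks, 13 were intronic.

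Chaperones were frequent on the list, with a peak in 11 of 25 members (44.0%) and in 11 of the 21 that had a called colon peak (52.4%). Of their 37 peaks, 27 were coding, and the median log2 fold over all 37 was 4.23, against 4.29 over all listed peaks. Hsp90b1, the chaperone of the endoplasmic reticulum, had 8 coding peaks at 3.42 to 4.70. Hsp90aa1 had 2 coding peaks at 5.62 and 5.54 and an intron peak at 5.17, and Hsp90ab1, its constitutive paralog, had 5 coding peaks at 3.35 to 4.11. Canx, the calnexin lectin, had 4 coding peaks at 3.90 to 4.53 and 1 in the 5′ UTR at 3.12. Reads from near-identical stretches of these paralogs may be split in the counting.

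Immediate early genes, which cells switch on within minutes of a stimulus, had a peak in 10 of 21 members (47.6%), and 12 of 32 peaks were intronic. At a log2 fold of at least 4, 5 members kept a peak. Besides Atf3, Jun had 6 peaks at 3.23 to 5.20, of which 3 were in the 5′ UTR, and Fosb had 4 at 3.45 to 5.62, all intronic. Egr1 had 1 proximal intron peak at 3.73, and Zfp36, which destabilizes short-lived mRNAs, had 4 peaks at 3.98 to 4.46 in both UTRs and coding sequence. Of 30 intestinal transcription factors, 8 had a peak (26.7%), and only 2 of 21 peaks were coding. Hnf4a, a master regulator of enterocyte genes, had 2 peaks in the 5′ UTR at 3.05 and 3.35, and Hnf4g, its paralog, 1 coding peak at 4.58. Klf3 had 6 peaks at 3.37 to 5.14 in the 5′ UTR and introns, Klf6 had 4 at 4.08 to 5.50, of which 3 were in the 3′ UTR, and Ppard, a lipid-sensing nuclear receptor, had 3 in a distal intron at 4.66, 6.21 and 6.20. Of 44 chromatin regulators, 8 had a peak (18.2%), with 10 of 18 peaks coding. Arid1a, a remodelling subunit, had 4 coding peaks at 3.57 to 4.56, and Ncor1, a corepressor, 4 at 4.39 to 5.25.

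On the list of 27 Wnt and crypt stem cell genes, which does not hold Ctnnb1, Lgr4, a receptor of R-spondin, alone had peaks, at 3.06 and 3.51 in the 5′ UTR. None of the 22 immune cell genes, 21 stromal and endothelial genes or 20 enteroendocrine and tuft genes had a peak, and 6, 15 and 1 of them had a called colon peak. Over all protein-coding genes the share with a peak was 1.96%, and lists of this size can hold none at that share. Of 20 neural genes, Prdm13 had 2 coding intervals, described with the highest folds. Aminoacyl-tRNA synthetases had a peak in 1 of 35 members (2.86%), Lars2 of mitochondria, with 3 in the 3′ UTR at 4.39 to 6.51. Collagens had a peak in 1 of 45 (2.22%), Col6a6, in an intron at 5.98. Both shares are close to that over all protein-coding genes. A Lars2 site at 5.50 matched 3 places of the genome, so reads there may not all come from this gene. The Col6a6 peak holds a run shared with other genes, described below.

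Some lists differed widely in region. Over the lipid, hydrolase, mucus and antimicrobial lists, 22 of 79 genes had 133 peaks, of which 82.7% (75.2 to 88.7) were coding and 4.51% (1.67 to 9.56) intronic. Over the hnRNP, splicing, translation factor, ribosomal protein and helicase lists, 34 of 269 genes had 81 peaks, of which 37.0% (26.6 to 48.5) were coding and 55.6% (44.1 to 66.6) intronic. The medians of the log2 fold were 3.67 and 4.44. This grouping was chosen after the values were seen and leaves out lists between these shares, such as brush border genes with 44.1% coding and 38.2% intron peaks, immediate early genes with 34.4% and 37.5%, and chaperones with 73.0% coding.

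Long non-coding RNAs held 150 peaks on 18 genes, and 103 of them, 8.06% of the list (6.63 to 9.69), lay on Malat1 and Neat1. Malat1, a nuclear-speckle RNA (ENSMUSG00000092341.2, chr19:5795690-5802672), had 54 peaks in 17 joined sites at 3.1 to 6.27, and 35 of them stood at the cap of −log10 p. Neat1, the scaffold of paraspeckles (chr19:5824708-5845478), had 49 peaks in 44 sites at 3.14 to 6.88, and 10 stood at the cap. The peaks of Malat1 were thus cut into more neighbouring intervals, and those of Neat1 stood higher, with medians of 3.75 and 5.21. Xist had 12 peaks in 9 sites at 3.84 to 6.16. Gm10710 had 4 intervals that all carried a log2 fold of 6.80, and Kcnd3os, an antisense gene, 3 that all carried 7.40. The Gt(ROSA)26Sor locus, known as a site for transgenes, had 4 peaks at 4.11 to 5.31, of which 3 were in introns. Zfas1, a host RNA of small nucleolar RNAs, had 1 intron peak at 3.17. The counting of reads by strand is not given in the sources used here, so antisense genes and their partners may share reads.

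Small non-coding RNAs had 16 peaks on 13 genes. MicroRNA genes held 8, and in the 4 that matched RefSeq the peaks lay on a mature arm. Mir194-1 had 2 peaks, at chr1:185313325-185313337 with a log2 fold of 5.92 and at chr1:185313338-185313347 with 6.41, and Mir194-2 had 2, at chr19:6264658-6264663 with 5.70 and chr19:6264664-6264680 with 5.91. Both genes give the same mature miR-194-5p, so reads cannot be assigned between them from that strand. The peak of Mir215, at chr1:185313609-185313631 with 5.81, covered all 21 bases of miR-215-5p, and that of Mir142, at chr11:87756903-87756927 with 6.04, all 23 bases of miR-142a-3p. miR-194 and miR-215 are known as microRNAs of the intestinal epithelium and miR-142 as one of blood cells, and the 3 mature strands have 3 different seeds. The −log10 p of these 6 peaks was 7.52 to 13.1, so they stood above the median of the list in fold and below it in p. The other genes that the annotation calls microRNAs were Gm25911 at 4.67, with a −log10 p at the cap, and Gm24187 at 4.24. Neither matched a RefSeq entry, and both belong to a group of 6 genes with shared sequence, described below. Their sites matched 6 and 4 places of the genome, so they are not counted here as bound microRNAs. Scarna2, a guide RNA of Cajal bodies, had 1 peak at 3.06 and Snord99, a guide of RNA modification, 1 at 3.25. The small nuclear RNA genes Gm25541 and Gm24265 had 1 each at 3.26 and 3.04.

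Sites were richer in G than the sequence beside them in all 6 regions. Over the 1026 joined sites, each widened by 15 bases, G made up 36.4% of bases, against 29.7% and 29.3% in windows of the same length 100 bases upstream and downstream. In coding sites it was 32.1% against 25.9% and 25.4%, in proximal introns 43.5% against 36.3% and 35.7%, and in distal introns 39.4% against 31.2% in each flank. The median GC content of proximal intron sites was 73.5%, against 67.2% and 68.2% in their flanks. The hexamers below were searched as written on the transcript strand only. GAAGAA was found in 80 of 335 coding sites (23.9%), against 7.46% and 5.97% of the flanks, and in 11.1% of all sites, against 5.07% and 3.70%. The flanks were cut from the genome, so those of coding sites can lie in introns. Windows tiled over the coding sequence of the same genes held GAAGAA in 13.3%, as described below. GGGAGG was found in 21.3% of all sites and in 11.9% of flanks, and GGTGGG in 17.3% and 7.94%. The hexamers other than GAAGAA were picked for their frequency in these sites, and GGGAGG and GGTGGG can overlap in GGTGGGAGG. GAAGAA is also among the hexamers that rank highest in these coding sites over their flanks, so its excess is not an independent test.

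**Figure D5:**
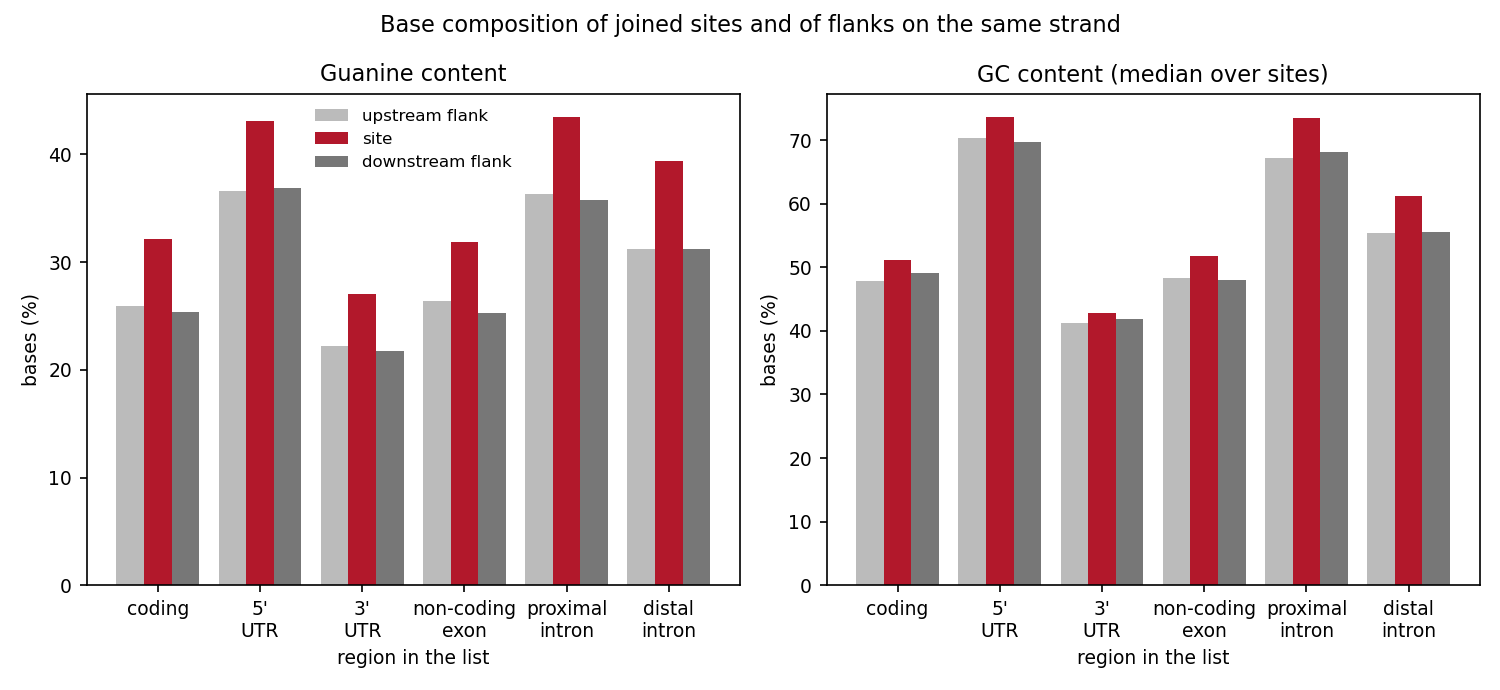
Share of G in percent of bases and median GC content in percent (y axes) of the sites and of their upstream and downstream flanks, by region (x axis). G is higher in sites than in both flanks in all 6 regions, at 36.4% against 29.7% and 29.3% overall.

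Windows drawn from the whole of the same region in the same genes gave a second background. Of 335 windows of 103 bases centred on coding sites, 23.0% held GAAGAA, against 13.3% of 4128 such windows tiled over the coding sequence of those genes. In proximal introns, GGGCGG was in 37.0% of 208 windows of 97 bases, against 2.37% of 11554. Among 214 widened sites in proximal introns it was in 39.7%, against 22.4% of their flanks. The tiled windows cover every proximal intron of these genes, whereas 71.3% of placed intron peaks lay in intron 1. In distal introns, GGTGGG was in 24.5% of 212 windows of 95 bases, against 3.34% of 134645, and GGGAGG in 25% against 4.03%. In exons of long non-coding genes, GGTGGG was in 19.2% of 78 windows of 71 bases, against 3.58% of 1034. The intron differences are wider here than against the flanks, and GC content differs in the same direction, with a median of 74.2% in proximal intron windows against 45.4% over all such windows. The part of GC content in the letter counts was not tested. A match describes the letters in these windows and is not a binding site.

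The highest log2 folds of the list were mostly on narrow intervals. Prdm13, a transcription factor of neurons, had 2 adjoining coding intervals of 10 and 9 bases, both at 9.15 with a −log10 p of 97.1. Zfhx3, a homeobox factor, had 3 peaks in the 5′ UTR at 7.43, 8.17 and 8.16, the highest of them 17 bases wide. They were followed by Mthfd1l at 7.76 over 5 bases, Kpna1 at 7.44 over 21 bases, Kcnd3os at 7.40 over 13 bases, Slc5a1 at 7.36 over 66 bases and Ostm1 at 7.23 over 4 bases. Cdh1 at 7.08 over 47 bases, Fam124a at 7.02 over 17 bases and Hnrnpk at 6.99 over 104 bases completed the first 10 genes. Of these 10 peaks, 7 were in a distal intron and 1 each in a proximal intron, coding sequence and the 5′ UTR. Over the list, 166 peaks were under 20 bases wide.

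The cap of −log10 p was reached by 93 peaks, 45 of them on Malat1 and Neat1 and 48 on 19 other genes or on none. Sequence at the sites was compared across genes. Of 1026 sites, 5 sites with 12 peaks matched ribosomal RNA over at least 20 bases at 90% identity, on Gm26917, Adgrb1, Gm26197, Tor1aip2 and Gm20594, and 7 of the 12 peaks were at the cap. The 67 reference sequences used cover part of the large ribosomal RNA, so further matches would be missed. Another 56 sites with 67 peaks, on 49 genes, shared at least 30 bases at 90% identity with a site of another gene. The largest group joined 30 genes, among them Slc5a1, Asah2, App, Pigr, Ncl, Hsp90aa1 and Rbm25, with 35 sites at log2 folds of 3.12 to 7.36, and 32 of the sites held GAAGAA. A search of the genome counted a match over at least 90% of a widened site at 95% identity, with simple repeats masked. By that rule, 950 of the 971 sites that could be placed matched 1 place and 21 matched several. Shorter shared runs, such as those below, are not counted by it, so reads at the 950 sites were not shown to be unique.

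A group of 6 genes, with Gm25911, Gm24187 and Zfp791 among them, shared sequence with no purine run. Gm26561 at chr17:70963763-70963797, Peak1 at chr9:56223914-56223948 and Col6a6 at chr9:105819517-105819551 each had a site at the cap that held the same 35 bases, printed here in lower case because no part of the run stands out. Their log2 folds were 4.61, 5.90 and 5.98.
Shared run: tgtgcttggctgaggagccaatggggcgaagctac
Reads from such a run cannot be assigned to 1 of the genes by sequence, and the values of these genes are uncertain for that reason. The same holds for Camk1d at 3.34 and Il31ra at 4.17, which share 32 bases, and for AA474408 at 3.96 and Gphn at 6.26, which share 33.

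Colon values are given beside these for scale only, since the colon libraries come from another segment, a single-end protocol and samples whose labels conflict on genotype, so that these cannot be told apart. Of the 1278 peaks, 457 (35.8%) overlapped a called mAb peak and 247 (19.3%) a called rAb peak by at least 1 base on the same strand. The mAb values there had a median log2 fold of 1.56, which was 0.06 at 122 coding peaks, 2.56 at 91 proximal intron peaks and 2.15 at 92 distal intron peaks. Past the cutoff for both values were 48 of the mAb overlaps and 9 of the rAb overlaps. Apob, Fabp1, Mgam, Slc5a1 and Srsf5 overlapped no called colon peak.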

How the data were processed

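RNA bound by DDX5 was measured by eCLIPseq in 2 small intestine CLIP samples and 2 size-matched inputs, grouped by their GEO titles. Per the methods, CLIPper was run by the authors on the IP libraries to define peaks, and the replicates were merged by Irreproducible Discovery Rate analysis. The submitters' processing notes name mm10, cutadapt 1.9.1, STAR 2.4.0i and SAMtools 1.4.1, and further steps before peak calling are not given in the sources used here. The deposited log2 fold is depth-normalized IP reads over input reads, and the deposited −log10 p, which the authors cap at 400, comes from the same reads. The deposited list holds only peaks above 3 for both. It gives no counts, so no depth or interval of a fold can be had. Another list of the series, whose name fits none of the sample labels, was left out, and the deposited colon values were used at overlapping peaks only.

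Gene, class and region were taken from the list and checked against GENCODE M21, and gene and transcript lengths came from the latter. Proximal introns lie within 500 bases of an exon. Intervals up to 10 bases apart were joined, widened by 15 bases and compared with same-length windows 100 bases away. Sites were aligned to each other, to ribosomal RNA and to the genome with BLAST+ 2.17.0. Shares have exact (Clopper-Pearson) 95% intervals from SciPy 1.17.1, with Python 3.11.15, pandas 2.3.3 and NumPy 2.4.6. The scripts were tested on simulated data. No test between conditions was made, since 1 merged list gives no replicate values.

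Genes were named by rule: the 10 with most peaks, the 10 highest by log2 fold and by −log10 p, the 4 members of each list with most peaks, the 3 leading genes of each other class, and Fabp1 and Ddx5. Genes outside it were chosen after their values were seen, and some that it names are not reported here. The members and lists were chosen with earlier results of these data known. Alternatives were a log2 fold of at least 4, a −log10 p of at least 5, joined intervals, 1 interval per gene and pair of values, intervals of at least 20 bases, other region and gene assignments, Malat1 and Neat1 left out and, added after seeing the data, sites of shared sequence left out.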

Additional observations from a re-analysis of the deposited data

How the results depend on the processing

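The list is already cut at 3 on both values and gives neither depth nor values per replicate, so precision per peak is unknown. No paired analysis was possible because the list merges both replicates and holds no value of either one. The fits without either replicate and with a replicate block were not run, for the same reason.

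A count was taken as moved where it changed by more than 1.5 times, and a share or median where it left its 95% interval. Of 87 recomputed values of the main results, 77 stayed within these limits and 10 moved. With a log2 fold of at least 4, 778 peaks were left, 24 genes had 5 or more, the coding share of protein-coding genes was 20.4%, the proximal intron share 29.8% and the 5′ UTR share 5.22%. The medians became 4.49 for coding and 4.98 for intron peaks, which follows from the cutoff itself. With regions from the annotation, the proximal intron share was 27.2%, and the cause was not tested. Without Malat1 and Neat1, the 10 leading genes held 11.9% of peaks and exons 59.6% of long non-coding peaks. Of 210 counts for single lists, 199 stayed within 1.5 times. The log2 fold of at least 4 left no member on the Wnt, ribosomal protein and histone lists, among others. Sites found to share sequence or to match ribosomal RNA were also left out, a choice made after seeing the data. This moved none of the main results and removed the only collagen gene. The reference covers only part of the large ribosomal RNA, so any sites matching the rest stayed in.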
